A study of Homo sapiens with 12 samples.

Results

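The 37 genes encoded by mitochondrial DNA were examined in cell lines of head and neck squamous carcinoma (HNSCC) with and without interferon alpha (IFNα). They are the rows whose symbol starts with MT-, 37 of the 60099 genes in the table, and no other row lay on chromosome MT. The group holds 13 protein-coding genes, 22 tRNA genes and 2 rRNA genes. Total RNA had been depleted of ribosomal RNA and sequenced with strand kept, in 12 samples of 2 established HNSCC lines, Cal27 and HN30. Samples lettered A and D had no IFNα, those lettered B and E the low dose of 20 ng/ml, and those lettered C and F the high dose of 200 ng/ml, given over 24 h, with 2 replicates per letter. Letters A to C form one line set and letters D to F the other. Which set is which line was not used here. Nothing in the labels says whether the 2 replicates were separate cultures, so p-values measure only the spread between these samples, which may be technical.

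Human mitochondrial DNA is a small circle that is transcribed on both strands into long precursor RNAs. Most of its genes lie head to tail with tRNA genes between them, and the precursors are cut at the tRNAs to release the messengers. Nuclear genes supply the polymerase, the cutting enzymes and the decay machinery. The coding genes make core subunits of respiratory complexes I, III and IV and of the ATP synthase, complex V. Type I interferon switches on a nuclear antiviral program, and mitochondria carry a platform for antiviral signalling. Of the members, 28 lie on the plus strand of the reference, whose RNA is made from the heavy strand, and 9 lie on the minus strand. The minus strand holds 1 coding gene, MT-ND6, and 8 tRNA genes.

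The members were chosen by symbol and selected on their share of all counts, which was higher at 200 ng/ml in A-C, so values of that contrast are given as a description with no test. Libraries held 10517448 to 16056734 estimated counts. The 7 squamous epithelium markers were all above 3 counts in A-C, and all but KRT14 were in D-F, where KRT14 had 0 counts in D and E and 3 and 2 in F. They had a summed level of 2945 to 3320 CPM, counts scaled to a common library total, in A-C and of 1264 to 1447 in D-F. The fibroblast marker list summed to 12.4 to 22.3 CPM over the 12 samples, with 4 of its 5 genes above 3 counts in a sample. Its sum was 18.5 to 19.1 in A and 12.4 to 14.7 in C. The blood and vessel list summed to 6.58 to 40.8 CPM, with CD3E at 0 throughout and 3 of 5 genes above 3 counts in a sample. Its sum was 6.58 to 6.89 in D and 38.6 to 40.8 in F. Only 1 of its 5 genes passed the filter on low counts. That gene had log2 fold changes at 200 ng/ml of 2.71 in D-F and 0.82 in A-C. The part of either list in the member values was not tested. All 10 interferon response genes used as a check of the dose labels rose in each tested treatment comparison with edgeR.

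The sequences the results turn on are printed here from the GENCODE 29 transcripts on GRCh38, 5′ to 3′. The first pair shows overlapping genes, whose shared bases are in capitals. MT-ATP8 and MT-ATP6 share 46 bases and MT-ND4L and MT-ND4 share 7 bases, so reads inside the overlap can belong to either gene.
MT-ATP8 into MT-ATP6, chrMT:8512-8587, plus strand: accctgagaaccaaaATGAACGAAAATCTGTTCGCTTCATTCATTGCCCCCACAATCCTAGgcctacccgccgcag
MT-ND4L into MT-ND4, chrMT:10740-10786, plus strand: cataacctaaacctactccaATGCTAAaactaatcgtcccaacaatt
The second set shows a tRNA gene that touches a coding gene, with the first 30 bases of MT-ND4L in capitals after the whole of MT-TR. It is shown because MT-ND4L passed at 20 ng/ml in A-C and MT-TR, which did not pass, lies directly before it.
MT-TR and MT-ND4L, chrMT:10405-10499, plus strand: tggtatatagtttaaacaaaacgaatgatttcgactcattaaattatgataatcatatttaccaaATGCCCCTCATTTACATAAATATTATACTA
The third set holds 3 tRNA genes that were lower in untreated D than in untreated A. Each is written as its own RNA reads, with T for U.
MT-TD, tRNA for aspartate, chrMT:7518-7585, plus strand: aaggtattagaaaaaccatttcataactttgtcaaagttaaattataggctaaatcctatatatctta
MT-TS1, a tRNA for serine, chrMT:7446-7514, minus strand: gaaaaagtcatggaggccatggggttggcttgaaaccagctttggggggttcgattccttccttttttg
MT-TL1, a tRNA for leucine, chrMT:3230-3304, plus strand: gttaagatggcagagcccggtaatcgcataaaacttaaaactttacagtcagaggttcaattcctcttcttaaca

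The 37 members took 4.80% and 4.79% of all counts in the A samples, 5.22% and 4.82% in B, and 6.51% and 7.82% in C. In D-F the shares were 4.67% and 4.35% in D, 3.89% and 4.42% in E, and 4.14% and 3.73% in F. Both C samples lay above all other samples, and the C samples differed from each other by more than any other pair of replicates. Both F samples lay below both D samples. The mean was 4.79% ± 0.0107 (SD, n = 2) in A, 7.16% ± 0.922 in C, 4.51% ± 0.227 in D and 3.93% ± 0.289 in F. The widest 95% Wilson interval reached 0.0162 percentage points to either side, which covers counting error only. The 5 structural noncoding RNAs examined, such as the signal recognition particle RNA RN7SL1, had a lower summed share in C than in A. They took 3.04% and 3.33% of counts in A and 2.80% and 2.01% in C, and their part in the share was not tested. With these RNAs left out of the total, the mean share was 4.95% in A and 7.34% in C. In bulk samples, fewer cells of a type and less RNA per cell cannot be told apart.

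**Figure D1:**
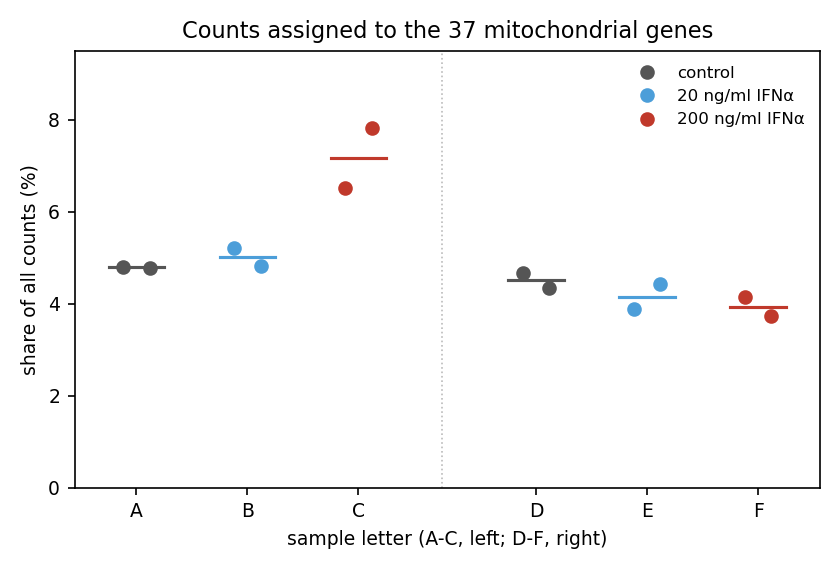
Share of all estimated counts assigned to the 37 mitochondrial genes (y axis, %) in each of the 12 samples by letter (x axis). Points are samples, horizontal lines are means of 2, and colours give the dose. The C samples sit at 6.51% and 7.82%, and the other samples lie between 3.73% and 5.22%.

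Coding genes held between 99.7% and 99.8% of the member counts in each sample. The tRNA genes together had 655 to 1652 counts per sample and the 2 rRNA genes 168 to 489. Ribosomal RNA had been removed before sequencing, and the library protocol favoured fragments longer than a tRNA, whose genes span 59 to 75 bases here. Counts of tRNA and rRNA genes can therefore not be read as levels of the mature molecules. Counts for 34 of the 37 members passed the filter on low values, and MT-TF, MT-TV and MT-TC did not, with at most 7 counts in a sample.

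Levels between genes were compared as TPM, which is scaled for length. In untreated A, MT-CO1, the catalytic subunit of complex IV, was highest at 12712 ± 278 TPM (SD, n = 2). MT-ATP6, the proton channel subunit of complex V, followed at 10688 ± 696 TPM and MT-CO2, the subunit of complex IV that takes electrons from cytochrome c, at 8797 ± 278 TPM. MT-ND3, a small subunit of complex I, was lowest at 1162 ± 131 TPM. In untreated D the order began with MT-CO2 at 13202 ± 1418, MT-ND4 at 12329 ± 1087 and MT-CO1 at 12143 ± 685 TPM, whose samples overlapped from each gene to the next. MT-ND3 was lowest there too, at 598 ± 10.1 TPM. Within A, the samples of neighbouring genes overlapped for MT-CO3 with MT-ATP8 and for MT-ND1 with MT-ND4L, and for no other pair. In C the samples of MT-CO2, MT-ATP8, MT-ATP6, MT-CO1 and MT-ND4 overlapped from each gene to the next.

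At 200 ng/ml in A-C, 12 of the 13 coding genes had both C samples above both A samples, where 19.6% of the 19944 genes tested did so and 30.3% had both C samples below, and the exception was MT-ND6. This contrast picked the members, so nothing is read from that count. The median log2 fold change of the 13 coding genes was 0.66, beside -0.00 for all genes tested. Among the complex I subunits, MT-ND4L had 1056 and 1019 CPM in A and 2076 and 2079 in C, a log2 fold change of 1.06 ± 0.094 (SE). MT-ND4 had 6582 and 6406 CPM in A and 10738 and 12666 in C, a log2 fold change of 0.91. In both genes the A samples lay close together and below the C samples. MT-ND2, a membrane subunit of complex I, had 3871 and 3837 CPM in A and 6078 and 7757 in C, a log2 fold change of 0.90. MT-ND5, the subunit at the far end of the membrane arm, had 4160 and 4096 CPM in A and 5205 and 7272 in C, a log2 fold change of 0.66. MT-ND3 stood at 0.61 and MT-ND1 at 0.46 on the log2 scale. Over the members, the C replicates were less alike than those of other letters. The chi-square per degree of freedom between replicates over the members was 166 in C and 7.48 to 39.4 in the other letters. Over all genes it was 14.8 in C, 14.1 in A and 10.6 to 13.8 in the other letters. This measure grows with the counts, so its values over members and over all genes are not on a like footing. MT-CYB, the mitochondrially encoded subunit of complex III, had 2982 and 3222 CPM in A and 3721 and 3528 in C, a log2 fold change of 0.28.

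Within complex IV the 3 subunits were unequal in A-C. MT-CO2 had 3767 and 3674 CPM in A and 6294 and 7732 in C, a log2 fold change of 0.97, while MT-CO1 stood at 0.40 and MT-CO3 at 0.26. The complex V gene MT-ATP8 stood at 1.26 ± 0.251 (SE), the highest of the coding genes with all samples. Its 2 C samples were far apart, with 1418 and 2717 CPM against 929 and 875 in A. Without C replicate 2 it stood at 0.70 and MT-ND4L at 1.05, so its rank rested on that sample, and without C replicate 1 it stood at 1.65. MT-ATP6, which overlaps it, had 4252 and 4756 CPM in A and 6358 and 7331 in C, a log2 fold change of 0.66.

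Plus-strand members mostly had higher values than minus-strand ones in the contrast of C with A, with overlapping ranges. Minus-strand genes held 0.90% to 1.95% of the member counts, so the share that picked the members rested almost wholly on plus-strand genes. The split by strand is therefore a description only. MT-ND6, the complex I subunit on the minus strand, had 906 and 676 CPM in A and 715 and 679 in C, a log2 fold change of -0.12 ± 0.111 (SE). Both C samples lay between the A samples. The log2 fold change of MT-ND6 was 0.09 without A replicate 1 and -0.31 without A replicate 2. The median log2 fold change was 1.09 for the 12 plus-strand tRNA genes tested, from 0.34 to 2.50, and -0.00 for the 7 minus-strand ones, from -0.23 to 0.56. All plus-strand tRNA genes together had 60.5 and 58.2 CPM in A, 72.3 and 66.4 in B, and 94.9 and 131 in C. Those on the minus strand had 28.9 and 24.3 CPM in A, 23.1 and 28.3 in B, and 24.0 and 26.1 in C, which overlapped. Whether strand was used in the counting is not given in the sources used here, so reads from opposite strands may not be fully separated. MT-RNR1, the small ribosomal RNA, had 14 and 35 counts in A and 64 and 58 in C, a log2 fold change of 1.77. MT-RNR2, the large one, had 181 and 166 counts in A and 253 and 431 in C, a log2 fold change of 1.40.

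By counts, the share of complex I genes was higher and that of complex IV genes lower at 200 ng/ml in both sets. Complex I genes held 42.2% and 41.2% of the coding counts in A and 44.7% and 46.0% in C, and 44.5% and 43.5% in D and 47.0% and 47.3% in F. Complex IV genes held 40.7% and 40.3% in A and 37.6% and 36.6% in C, and 43.4% and 43.8% in D and 41.9% and 41.0% in F. By counts the treated samples did not overlap the controls in either set. As a share of coding TPM, complex I genes held 39.5% and 38.1% in A and 41.2% and 39.3% in C, which overlapped, and 42.9% and 42.7% in D and 46.8% and 47.0% in F, which did not. Complex IV genes did not overlap on that scale either, with 34.7% and 34.5% in A and 31.99% and 30.7% in C, and 38.0% and 38.3% in D and 36.8% and 35.8% in F. For complex V genes the shares of coding counts were 10.8% and 11.8% in A and 11.97% and 12.9% in C. In D they were 8.91% and 8.77%, and in F 7.79% and 8.12%. As shares of coding TPM they were 20.8% and 21.9% in A and 22.3% and 26.6% in C. The TPM shares were 16.6% and 15.9% in D and 13.8% and 14.3% in F. On both scales complex V genes lay higher at 200 ng/ml in A-C and lower in D-F. These shares are descriptions and carry no test.

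**Figure D2:**
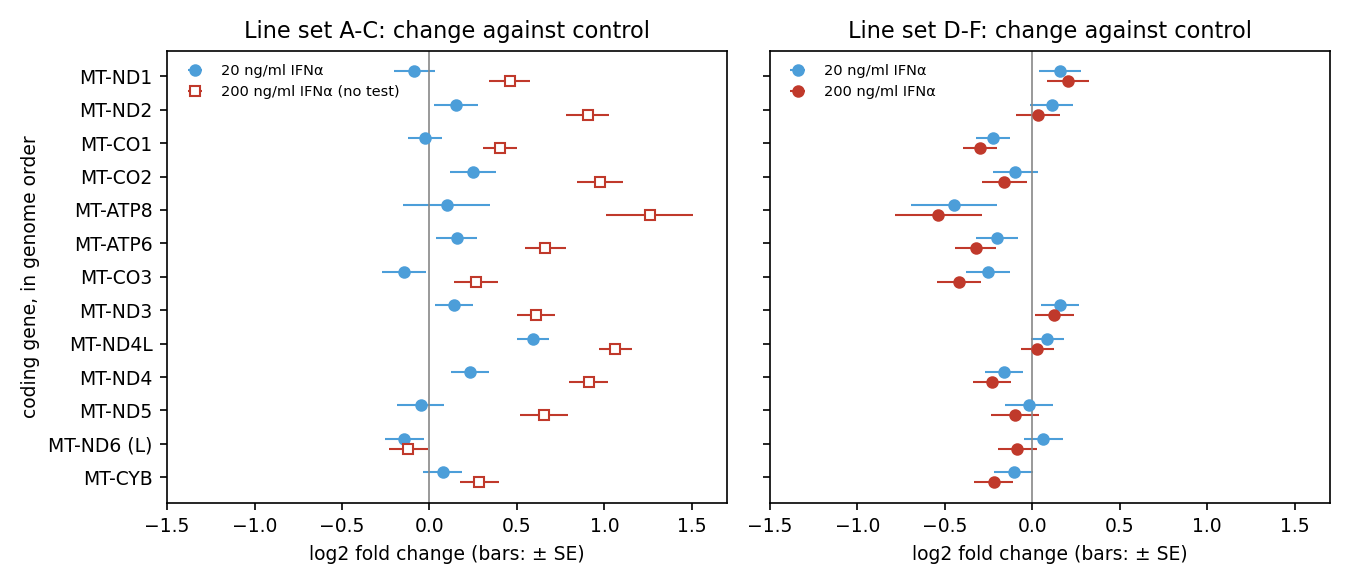
Log2 fold change against the control of the same line set (x axis) for the 13 coding genes in genome order (y axis), with A-C on the left and D-F on the right. Points are fitted values, bars are SE, open squares mark the contrast that picked the members and was not tested, and (L) marks the minus-strand gene. In A-C at 200 ng/ml 12 genes lie above 0 and MT-ND6 lies at -0.12, whereas in D-F at 200 ng/ml 9 lie below 0.

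At 200 ng/ml in D-F, no member passed either rule. With edgeR's quasi-likelihood test and Benjamini-Hochberg adjustment, 0 of 34 members passed the rule of a 2-fold change and an adjusted p of 0.05 or less, where 2.09% of all genes tested did. At any fold, 0 of 34 passed, against 5.84% of all genes. At an unadjusted p under 0.05 there were 4 of 34 members and 3734 of 19944 genes, and DESeq2 called 0 members at 2-fold and 1 at any fold. The coding genes had a median log2 fold change of -0.16, with 4 above 0 and 9 below 0, beside 0.00 for all genes tested. Both F samples lay below both D samples for 7 of 13 coding genes, which 25.3% of all genes tested did, and above them for 2 of 13, which 25.7% did.

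The lowest coding values in D-F belonged to MT-ATP8 and MT-CO3, of complexes V and IV. MT-CO3, a core subunit of complex IV, had 2836 and 2975 CPM in D and 2313 and 2055 in F, and the groups did not overlap. Its log2 fold change was -0.42 ± 0.125 (SE; edgeR adjusted p = 0.094), and DESeq2 gave an adjusted p of 0.0354. In data simulated for this comparison, with 50 genes changed at each fold, 26 of 148 DESeq2 calls were false. In the real data DESeq2 called 1554 genes at any fold, so that false share cannot be carried over to them. MT-ATP8 had 737 and 596 CPM in D and 481 and 440 in F, a log2 fold change of -0.54 ± 0.248 (SE; edgeR adjusted p = 0.285). In fits without C replicate 1 or C replicate 2, MT-ATP8 had an edgeR adjusted p of 0.0400 or 0.0399. MT-ATP6 had 3420 and 3212 CPM in D and 2733 and 2583 in F, a log2 fold change of -0.32 (edgeR adjusted p = 0.167). MT-CO1 had 11628 and 10978 CPM in D and 9757 and 8666 in F, a log2 fold change of -0.30 (edgeR adjusted p = 0.120). The groups did not overlap for these genes either. In complex I, MT-ND4 stood at -0.23, MT-ND5 at -0.10, MT-ND6 at -0.09, MT-ND4L at 0.03, MT-ND2 at 0.03, MT-ND3 at 0.12 and MT-ND1 at 0.20. MT-CYB stood at -0.22. Among the noncoding members, MT-RNR1 stood at -0.70 with 51 and 28 counts in D and 18 and 21 in F, and MT-TY, for tyrosine, at -0.57 with 6 and 9 counts in D and 4 and 4 in F. Neither passed. The plus-strand tRNA genes had a median of 0.07 and the minus-strand ones of 0.13. Summed, the former had 27.7 and 30.4 CPM in D and 34.2 and 29.9 in F. The latter had 23.2 and 23.8 CPM in D and 24.35 and 26.0 in F.

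At 20 ng/ml in A-C, MT-ND4L rose and no other member passed. The comparison uses the same A samples as the contrast that picked the members, so its call is not independent of that choice. MT-ND4L encodes a small membrane subunit of complex I. Its levels of 1056 and 1019 CPM in A became 1657 and 1449 in B, and both B samples lay between the A and the C samples. The log2 fold change was 0.59 ± 0.094 (SE), 1.51-fold, with an edgeR adjusted p of 0.0169 and higher values in 2 of 2 samples. Over all genes tested, 1.11% passed at any fold and 0.913% did so upwards, and 0 of 34 members passed the 2-fold rule, which 0.712% of all genes did. DESeq2 called 1 member at any fold and 0 at 2-fold. Of all coding counts, MT-ND4L held 2.20% and 2.13% in A, 3.18% and 3.01% in B and 3.19% and 2.67% in C. The second C sample lay below both B samples. In D-F it held 4.34% and 4.36% in D, 5.12% and 4.95% in E and 5.15% and 5.06% in F. The treated samples thus lay above the controls in both sets on this scale. In D-F its own log2 fold change was only 0.08 at 20 ng/ml and 0.03 at 200 ng/ml. The call was lost without A replicate 1 (edgeR adjusted p = 0.0806), without A replicate 2 (0.112), without B replicate 1 (0.117) and with the replicate number as a block (0.0551). MT-ND4, which shares its first 7 bases with the end of MT-ND4L, stood at 0.23 (edgeR adjusted p = 0.434). MT-TR, the tRNA gene directly before MT-ND4L, had 7 and 8 counts in A, 22 and 20 in B and 28 and 36 in C, and its value at 20 ng/ml was 1.55 on the log2 scale (edgeR adjusted p = 0.168). MT-ND3, the coding gene on the other side of MT-TR, stood at 0.14.

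**Figure D3:**
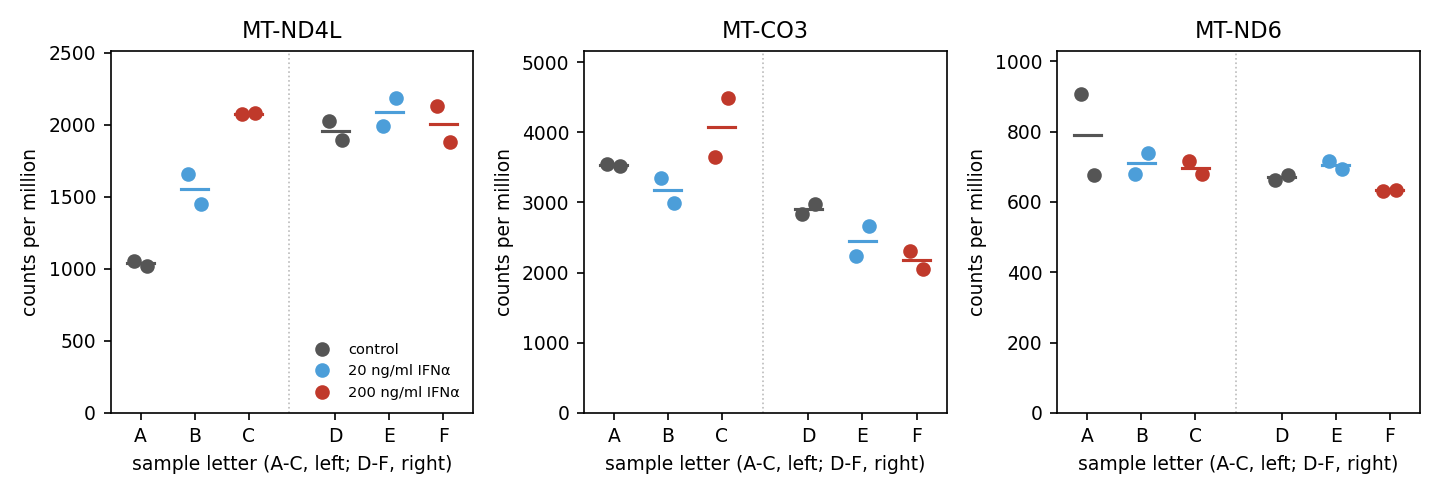
Level in CPM (y axes, starting at 0) of MT-ND4L, MT-CO3 and MT-ND6 in each sample by letter (x axes). Points are samples, horizontal lines are means of 2 and colours give the dose. MT-ND4L lies at 1056 and 1019 in A, 1657 and 1449 in B and 2076 and 2079 in C, MT-CO3 lies lower in E and F than in D, and MT-ND6 in C lies within the range of A.

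The other coding genes at 20 ng/ml in A-C lay between -0.14 and 0.25 on the log2 scale, and the median of all 13 was 0.10, beside -0.02 for all genes tested. Both B samples lay above both A samples for 4 of 13 coding genes, MT-CO2, MT-ND2, MT-ND4 and MT-ND4L, against 18.9% of all genes, and below them for 3, MT-CO3, MT-ND1 and MT-ND5, against 23.5%. At 20 ng/ml in D-F, 0 of 34 members passed either rule with edgeR, where 1.41% of all genes passed at 2-fold and 3.37% at any fold. DESeq2 called 0 as well, and 1 member had an unadjusted p under 0.05, beside 3022 of 19944 genes. The coding median was -0.10 in that comparison. Both E samples lay below both D samples for 5 of 13 coding genes, MT-ATP6, MT-ATP8, MT-CO1, MT-CO3 and MT-ND4, against 22.7% of all genes, and above them for 3, MT-ND1, MT-ND3 and MT-ND6, against 23.9%. MT-ATP8 stood at -0.45 and MT-CO3 at -0.25, and MT-ND4L stood at 0.08 with 2023 and 1893 CPM in D and 1990 and 2185 in E. Comparisons within a set share their control samples.

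The untreated sets differed in which mitochondrial transcripts were abundant. Of 34 members, 8 were at least 2-fold lower in D than in A and 0 were 2-fold higher, where 26.6% of all genes tested passed the 2-fold rule in either direction and 11.0% were lower. At any fold 14 were lower and 6 higher, 20 of 34, against 46.4% of all genes, 22.4% lower and 24.1% higher. Both D samples lay below both A samples for 9 of 13 coding genes, which 32.3% of all genes tested did, and above them for 3, which 41.6% did. The coding genes called at 2-fold were MT-ND1, MT-ND3 and MT-CYB. MT-ND1, the complex I subunit near the quinone site, had 3398 and 3395 CPM in A and 1339 and 1315 in D, a log2 fold change of -1.45 ± 0.121 (SE; edgeR adjusted p = 1.14e-05). MT-ND3 had 265 and 231 CPM in A and 125 and 124 in D, a log2 fold change of -1.09. MT-CYB had 2982 and 3222 CPM in A and 1476 and 1673 in D, a log2 fold change of -1.07. MT-ND5 stood at -0.80, MT-ATP6 at -0.54, MT-ND2 at -0.48, MT-CO3 at -0.38 and MT-ND6 at -0.33, all with an edgeR adjusted p of at most 0.05.

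The members higher in D included neighbours on the genome. MT-ND4L had 2023 and 1893 CPM in D, a log2 fold change of 0.82 ± 0.094 (SE; edgeR adjusted p = 8.6e-05), and MT-ND4 had 10778 and 9726 CPM in D against 6582 and 6406 in A, a log2 fold change of 0.56. MT-CO2 stood at 0.45, MT-RNR2 at 0.86, MT-TP at 0.65 and MT-TW at 0.62. Leaving out 1 library ended some of these calls. The MT-CO2 call was lost without A replicate 1 (log2 fold change 0.46), A replicate 2 (0.45) or D replicate 1 (0.36), and the MT-CO3 call without any 1 of the 4 samples of A and D (-0.41 to -0.34). MT-ND2 was lost without D replicate 2 (-0.40). MT-ND6 was lost without A replicate 1 (-0.12), either D replicate (-0.32 and -0.35) or E replicate 1 (-0.31). MT-RNR2 was lost without A replicate 2 (0.65) or either D replicate (0.87 and 0.85), MT-TP without A replicate 2 (0.48) or D replicate 2 (0.51), and MT-TW without any 1 of the 12 samples (0.51 to 0.74). Squamous marker levels also differed between the sets, as given above. Cell line and any other difference between the sets cannot be told apart.

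Among tRNA genes, MT-TD and MT-TS1, printed above and 3 bases apart on opposite strands, were the lowest in D. MT-TD had 71 and 114 counts in A and 5 and 9 in D, a log2 fold change of -3.81 ± 0.434 (SE; edgeR adjusted p = 8.16e-05). MT-TS1 had 15 and 12 counts in A and 1 and 1 in D, a ratio of A to D of 13.8 with an exact 95% counting interval of 3.47 to 120. MT-TD kept between 5 and 14 counts per sample in all 6 samples of D-F. MT-TL1 had 292 and 314 counts in A and 99 and 96 in D, a log2 fold change of -1.78. MT-TM, for methionine, stood at -1.81, MT-TI, for isoleucine, at -1.19, and MT-TE, for glutamate, at -0.80.

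**Figure D4:**
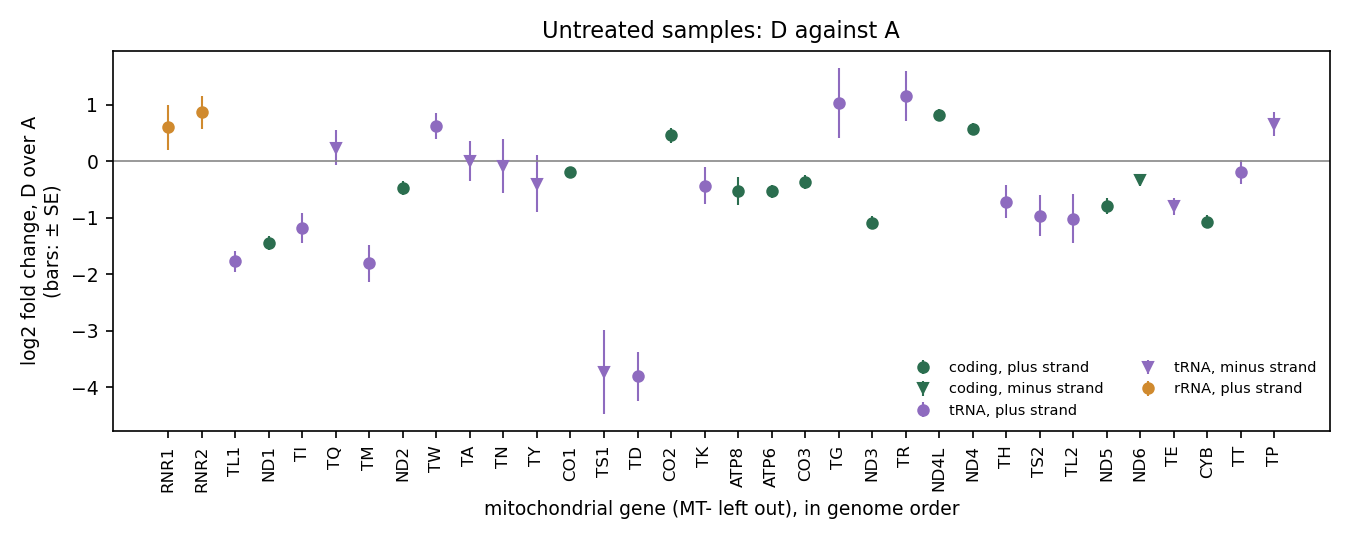
Log2 fold change of untreated D over untreated A (y axis) for the 34 members tested, in genome order (x axis). Symbols give the class of gene and its strand, and bars are SE. MT-TD and MT-TS1 lie lowest, at -3.81 and -3.73, and MT-ND4L and MT-ND4 lie above 0, at 0.82 and 0.56.

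Pieces of mitochondrial DNA copied into the nuclear genome can take reads from the members. The table held 405 such genes, of which 28 passed the filter, and 4 of them on chromosome 1 held 98.8% of the copies' counts. MTND1P23 lies at chr1:629062-629433, MTND2P28 at chr1:629640-630683, MTCO1P12 at chr1:631074-632616 and MTATP6P1 at chr1:633696-634376, all on the plus strand. They match their mitochondrial gene at 98.1%, 98.4%, 98.7% and 98.5% of aligned bases. Of all 100-base windows in MT-CO1, 27.9% were identical in MTCO1P12, so a read of that length from such a window matches both. The first 60-base stretch of MT-CO1 with the most differences, bases 304 to 363 of the gene, is shown with the 3 differing bases in capitals.
MT-CO1, chrMT:6207-6266, plus strand: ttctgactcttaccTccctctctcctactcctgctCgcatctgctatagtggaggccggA
MTCO1P12, chr1:631377-631436, plus strand: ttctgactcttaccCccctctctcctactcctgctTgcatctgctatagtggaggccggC

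The division of counts between gene and copy differed by line set. MTCO1P12 took 3.93% to 4.76% of the counts of the pair in the 6 samples of A-C and 21.1% to 23.4% in D-F. MTND1P23 took 1.04% to 1.495% of its pair in A-C and 13.5% to 16.1% in D-F. The ranges of the sets did not overlap for either pair. MTND2P28 took 24.9% to 27.2% in A-C and 22.9% to 25.1% in D-F, and MTATP6P1 16.04% to 21.99% and 19.4% to 24.6%, and these ranges overlapped. In D against A, MTCO1P12 rose by a log2 fold change of 2.31 and MTND1P23 by 2.49 (edgeR adjusted p = 1.35e-06 and 6.22e-07). When the 4 copies were added to their genes, MT-CO1 in D against A went from -0.20 to 0.08 and MT-ND1 from -1.45 to -1.25, and the edgeR adjusted p of MT-CO1 was 0.126 before and 0.531 after. The 200 ng/ml log2 fold change of MT-CO1 was 0.40 without and with its copy in A-C, and -0.30 and -0.28 in D-F. The next copy by count, MTCO1P48 on chromosome 2 at chr2:94899566-94900661 on the minus strand, had 0 counts in both A samples, 149 and 107 in D, 421 and 386 in E and 370 and 329 in F. It rose in D-F, by a log2 fold change of 1.98 with the low dose and 1.77 with the high dose (edgeR adjusted p = 0.0188 and 0.0206).

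**Figure D5:**
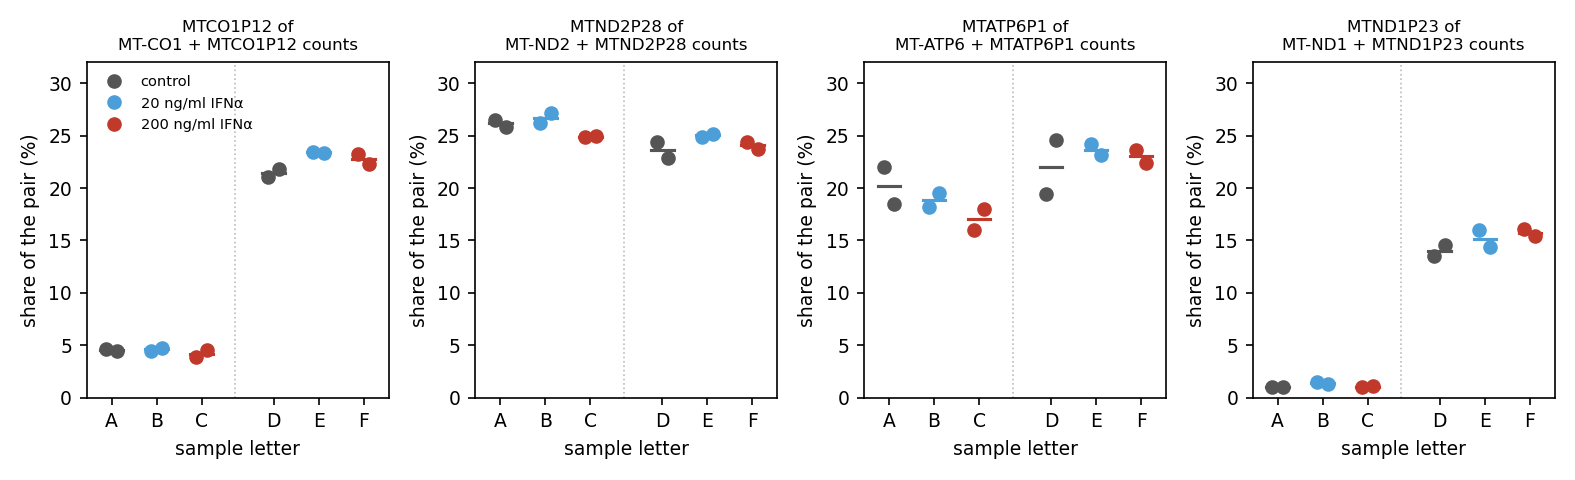
Share (y axes, %) of each chromosome 1 copy in the summed counts of the copy and its mitochondrial gene, per sample by letter (x axes). Points are samples, lines are means of 2 and colours give the dose. MTCO1P12 and MTND1P23 lie below 5% in A-C and above 13% in D-F, whereas the other 2 copies overlap between the sets.

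Nuclear genes that make, process and remove mitochondrial RNA were taken as 3 lists. None of the 9 transcription genes and none of the 15 RNA processing genes passed either rule in the tested treatment comparisons with edgeR or DESeq2. Lists this short can hold 0 calls at the share found over all genes, which at any fold was 5.84% at 200 ng/ml in D-F, 1.11% at 20 ng/ml in A-C and 3.37% at 20 ng/ml in D-F. At an unadjusted p under 0.05 there were 1 transcription gene at 200 ng/ml in D-F and 0 at 20 ng/ml. There were 3, 1 and 3 processing genes at 200 ng/ml in D-F, 20 ng/ml in A-C and 20 ng/ml in D-F. Of the 19944 genes tested, 3734, 2456 and 3022 were under it in those comparisons. POLRMT, the mitochondrial RNA polymerase, had 44.4 and 49.0 CPM in A, 34.3 and 28.0 in C, 47.9 and 52.3 in D and 41.6 and 52.1 in F. TFAM, which packages mitochondrial DNA, stood at 0.25 in A-C and 0.02 in D-F on the log2 scale at 200 ng/ml. LRPPRC, which stabilises mitochondrial messengers, had 0.03 and -0.09.

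PNPT1, the polynucleotide phosphorylase of mitochondrial RNA decay and a known interferon response gene, rose in each tested treatment comparison. It had 103 and 101 CPM in A, 239 and 240 in B and 299 and 331 in C, and 76.4 and 77.3 in D, 247 and 276 in E and 308 and 296 in F. Its log2 fold change was 1.97 ± 0.088 at 200 ng/ml in D-F (edgeR adjusted p = 8.7e-07), 1.24 at 20 ng/ml in A-C and 1.76 at 20 ng/ml in D-F, and it stood at 1.69 at 200 ng/ml in A-C. It was the 1 gene called of 6 in the RNA decay list in the tested treatment comparisons. Of all genes, 2.09% passed the 2-fold rule at 200 ng/ml in D-F, 0.712% at 20 ng/ml in A-C and 1.41% at 20 ng/ml in D-F. Of 12 genes for mitochondrial DNA replication and its nucleotides, CMPK2, a mitochondrial nucleotide kinase, rose by a log2 fold change of 6.13 at 200 ng/ml in D-F (edgeR adjusted p = 0.000165), from 1.79 and 4.03 CPM in D to 218 and 195 in F. RRM2B, a ribonucleotide reductase subunit, fell by 0.86 there on the log2 scale (edgeR adjusted p = 0.00698), from 77.9 and 66.8 CPM in D to 42.9 and 37.0 in F. In the other groups CMPK2 had 13.5 and 9.90 CPM in A, 44.2 and 131 in B, 199 and 166 in C and 139 and 180 in E. RRM2B had 29.5 and 24.3 CPM in A, 24.3 and 24.4 in B, 26.5 and 21.9 in C and 49.8 and 44.9 in E.

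Of 78 genes for mitochondrial ribosomal proteins, 0 were called at 2-fold in the tested treatment comparisons by edgeR or DESeq2. At an unadjusted p under 0.05 there were 7 at 200 ng/ml in D-F, 7 at 20 ng/ml in A-C and 9 at 20 ng/ml in D-F. Of the 19944 genes tested, 3734, 2456 and 3022 were under it in the same order. At any fold 3 of 78 were lower at 200 ng/ml in D-F and 0 higher, where 5.84% of all genes passed in either direction. They were MRPL51, MRPL24 and MRPS5, which were named after their values were seen. Their log2 fold changes were -0.58, -0.54 and -0.44, with edgeR adjusted p of 0.0187, 0.0472 and 0.0479. Between the untreated sets, 9 of the 78 were 2-fold lower in D, near the 11.0% of all genes, and 0 higher, with MRPL47 at -1.63, MRPL30 at -1.60, MRPS36 at -1.51 and MRPS31 at -1.28. At any fold 41 were lower and 4 higher, where 22.4% and 24.1% of all genes were, and the median was -0.47 beside 0.01 for all genes tested. Of 6 regulators of mitochondrial biogenesis, 2 coactivators were at least 2-fold lower in D and 0 regulators were higher. Of all genes tested, 26.6% passed that rule in either direction, so nothing is read from that count. PPARGC1A had 46 counts over both A samples and 0 over both D samples, at least 15.7-fold lower against a floor of 3 counts over the group. PPARGC1B had 75.8 and 70.1 CPM in A and 29.2 and 31.5 in D, a log2 fold change of -1.36 (edgeR adjusted p = 3.43e-05).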

How the data were processed

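The authors deposited whole-number estimated counts, TPM and FPKM per gene and per transcript for 12 samples, and the estimated counts were used as deposited. Per the labels and the submitters' processing notes, total RNA was depleted of ribosomal RNA, made into strand-specific libraries, trimmed with Trimmomatic 0.36, aligned to GRCh38.p10 with HISAT2 2.1.0 and quantified with StringTie 1.3.3b. The authors' TPM values were used for levels between genes, and the deposited FPKM values were not used for a result. CPM values were computed from all counts of a sample. Member sequences and positions came from GENCODE release 29 on GRCh38.

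Genes passing filterByExpr, 19944, were fitted in 1 model of 6 groups with TMM scaling and edgeR 4.0.16 (quasi-likelihood test, R 4.3.3). A call needed a 2-fold change and a Benjamini-Hochberg adjusted p of at most 0.05, and a second rule dropped the fold. Tested comparisons were F with D, B with A, E with D and D with A. C with A picked the members and was not tested. B and C share the controls A, and E and F share D. B with A and D with A thus use samples of the contrast that picked the members. The common biological coefficient of variation was 0.196. Alternatives, 21 in all, were DESeq2 1.42.0, other scalings, no filter, the replicate block, the compared samples only, each sample left out, the chromosome 1 copies added and the C samples left out, the last 2 chosen after seeing the data. The test scripts were tested on data simulated for F with D, with 50 genes changed at each fold. At an adjusted p of at most 0.05, edgeR recovered 3 genes changed 1.5-fold and 24 changed 2-fold, and DESeq2 10 and 30. Among the calls, 5 of 111 were false with edgeR and 26 of 148 with DESeq2. Changes of 1.5-fold were mostly missed, so 0 calls do not show that members were unchanged.

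Members and gene lists were chosen with earlier results of these data known. Any member passing the filter could be named. Of each nuclear list up to 4 called genes by size of change were named, with POLRMT, TFAM, LRPPRC and PNPT1 whatever their values, and of the nuclear copies the 5 with the highest mean count. Intervals are Wilson intervals for shares and exact intervals for count ratios. Of the listed symbols, 5 had no row under that name, PRORP and 4 ribosomal RNAs.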

Additional observations from a re-analysis of the deposited data

Results flagged for a closer look

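Several values moved in opposite directions in the 2 line sets, with both treated samples on one side of both controls in one set and on the other side in the other. The difference between the sets was not tested for any of them, and those at 200 ng/ml include the contrast that picked the members. Of all genes tested at 200 ng/ml, 19.6% lay above both controls in A-C and 30.3% below, and 25.7% and 25.3% in D-F. At 20 ng/ml these shares were 18.9% and 23.5% in A-C and 23.9% and 22.7% in D-F. The share of all genes with opposite directions in the 2 sets was not computed, so nothing is read from how many members are listed. The share of counts at 200 ng/ml was 2.37 percentage points higher than control in A-C and -0.578 points from control in D-F, a difference of 2.95 points. At 200 ng/ml the log2 fold change in A-C minus that in D-F was 1.80 for MT-ATP8, 1.14 for MT-ND4, 0.99 for MT-ATP6, 0.70 for MT-CO1, 0.68 for MT-CO3 and 0.50 for MT-CYB. Among noncoding members the same difference was 2.46 for MT-RNR1, 1.13 for MT-TY and -0.44 for MT-TE, from 1.77, 0.56 and -0.23 in A-C to -0.70, -0.57 and 0.22 in D-F. At 20 ng/ml MT-ND4 differed by 0.39, from 0.23 in A-C to -0.16 in D-F. MT-ND1 at 20 ng/ml differed by -0.24, from -0.09 in A-C to 0.16 in D-F. Also at 20 ng/ml, MT-TG differed by 1.87, from 1.62 to -0.25, and MT-TY by 1.295, from 0.54 to -0.75. MT-TG had 3 to 16 counts and MT-TY 3 to 13 counts per sample. Groups of 2 samples were too small for a check of single outlying samples.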

How the results depend on the processing

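Groups of 2 samples limit every test here, and shares are relative to the other RNA in a sample. Of 441 tests of single called members over 21 alternatives, 393 kept the call, 48 lost it and 0 reversed. In all alternatives, 13 of 21 calls were kept. Every call but MT-ND4L at 20 ng/ml in A-C was of D against A. For those, leaving out samples of B, C, E or F changed only the scaling, filter and shared spread. Such fits tested the calls only weakly. The number of members called at 2-fold was 0 in the 3 tested treatment comparisons without any 1 sample, and 6 to 9 in D against A. At any fold the D against A count was 14 to 23 over all alternatives, against 20. At any fold, MT-CO3 at 200 ng/ml in D-F passed under DESeq2 (adjusted p = 0.0354) and with no filter (edgeR adjusted p = 0.0434), and MT-ATP8 passed without all C samples (edgeR adjusted p = 0.0406).

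The coding median log2 fold change, leaving out 1 sample at a time, was 0.43 to 0.76 at 200 ng/ml in A-C, -0.24 to -0.10 at 200 ng/ml in D-F, 0.05 to 0.15 at 20 ng/ml in A-C, -0.23 to 0.030 at 20 ng/ml in D-F and -0.57 to -0.40 in D against A. It turned to 0.030 at 20 ng/ml in D-F without E replicate 1, and the cause was not tested. With total-count scaling the D against A median was -0.38, where the median of all genes was 0.10, and MT-CO3 and MT-ND6 lost their calls.

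As TPM the mean share was 8.52% in A, 9.26% in B, 13.9% in C, 8.38% in D, 8.14% in E and 7.79% in F. TPM weights short genes more. With the nuclear copies added it was 5.11% in A, 5.36% in B, 5.03% in D, 4.69% in E and 4.42% in F, and without structural RNAs it was 4.95% in A.

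Replicate numbers did not pair the samples, since the deviations of same-numbered samples correlated at -0.031 to 0.048 over 19944 genes. With the replicate block the D against A median was -0.39, 9 members were called at 2-fold and 15 at any fold, and 0 were called in the treatment comparisons. MT-ND4L at 20 ng/ml in A-C had an edgeR adjusted p of 0.0551 with the block.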
